A study of Mus musculus with 6 samples.

Results

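The BCL2 family genes studied here were 10 genes whose proteins set the threshold for mitochondrial cell death: the survival genes Bcl2, Bcl2l1 and Mcl1, the effector genes Bax and Bak1, and the BH3-only genes Bcl2l11, Bid, Bad, Bbc3 and Pmaip1. They were taken by gene symbol from transcript tables holding 24346 symbols, and all 10 were present, with 19 listed transcripts. RNA was sequenced from prostate luminal cells, the secretory epithelium of the gland, sorted from C57BL/6 mice aged 4 months. One group was wild type (WT, 3 libraries) and the other (CSF1, 3 libraries) came from transgenic littermates carrying mouse Csf1 behind the rat probasin promoter, which directs expression to prostate epithelium. Titles number the libraries of each group 3, 5 and 8, and values per library are given below in that order, WT before CSF1. Each is the first part of a number written with a slash. The labels do not say whether that number is a date, a litter or an animal. The labels do not say whether a library is 1 animal or a pool, or which markers were sorted, so a p-value here covers the spread between libraries, which may be technical.

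Proteins of this family meet on the outer mitochondrial membrane. BAX and BAK open pores in that membrane, which lets cytochrome c out and starts the caspase cascade. BCL-2, BCL-XL (from Bcl2l1) and MCL-1 hold BAX and BAK in check, and the BH3-only proteins either occupy the survival proteins or activate the effectors directly. In the prostate, BCL-2 protein is best known from basal cells, and luminal cells undergo apoptosis when androgen is withdrawn. Much of the family's control lies in protein binding, cleavage, phosphorylation and turnover, which RNA does not measure.

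Csf1 was at 1.54, 2.25 and 3.98 FPKM (fragments per length of transcript, scaled to the library) across WT, against 1082, 1326 and 1678 across CSF1, higher in every transgenic library. Marker genes were summed per library. The 9 luminal markers (such as Krt8, Krt18 and Epcam) summed to 6112 to 8144 FPKM in WT and 7583 to 10355 in CSF1, so the labelled cell type was present in both. The sum of 14 macrophage markers was 29.3, 39.7 and 148 FPKM in WT and 1001, 1225.5 and 4004 in CSF1, none of the 14 at 0 throughout WT. Sums of 7 basal markers were 61.7 to 75.1 against 546 to 854, of 10 stroma markers 97.8 to 114 against 506 to 744, of 11 lymphocyte markers 0.783 to 2.24 against 7.79 to 27.7 (2 at 0 throughout WT), of 6 endothelial markers 1.08 to 2.52 against 11.6 to 14.9, and of 7 neutrophil markers 0 to 0.0930 against 1.97 to 34.3 (6 at 0 throughout WT). These cell types moved with the genotype, and their part in any result below was not tested. In sorted bulk RNA, more cells of a type and more RNA per cell cannot be told apart. The CSF1 libraries were also deeper: coverage per FPKM ran from 2.72 to 3.50 across WT and from 4.17 to 5.01 across CSF1.

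Of the 10 members, 6 rose in CSF1 (Bcl2, Bcl2l1, Mcl1, Bax, Bid and Pmaip1) and 0 fell by limma at an adjusted p of 0.05. At an unadjusted p under 0.05 the counts were again 6 higher and 0 lower, where 31.4% of all tested genes were higher and 11.2% lower. Bcl2l11, Bad and Bbc3 did not pass, and Bak1 was not tested because its mean over the 6 libraries was under 1 FPKM. Of all 10951 genes tested, 32.4% were called, 24.9% higher and 7.47% lower. Pmaip1 and Bcl2 lay under 1 FPKM in WT and entered the test only because they were high in CSF1, so they could hardly have been tested without differing. Among the 7 tested members with at least 1 FPKM in WT, 4 rose and 0 fell. The share called among all genes at that WT level was not worked out, so this count has no matched background. In 7 of the 10 members, Bak1 included, every CSF1 library lay above every WT library, and in 3 the groups overlapped. The former pattern held for 34.7% of all tested genes and its reverse, found in 0 members, for 13.1%. Without CSF1 replicate 5, or without both libraries numbered 5, only Bcl2l1, Mcl1 and Pmaip1 were called, and Bcl2 was then under the filter.

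**Figure D1:**
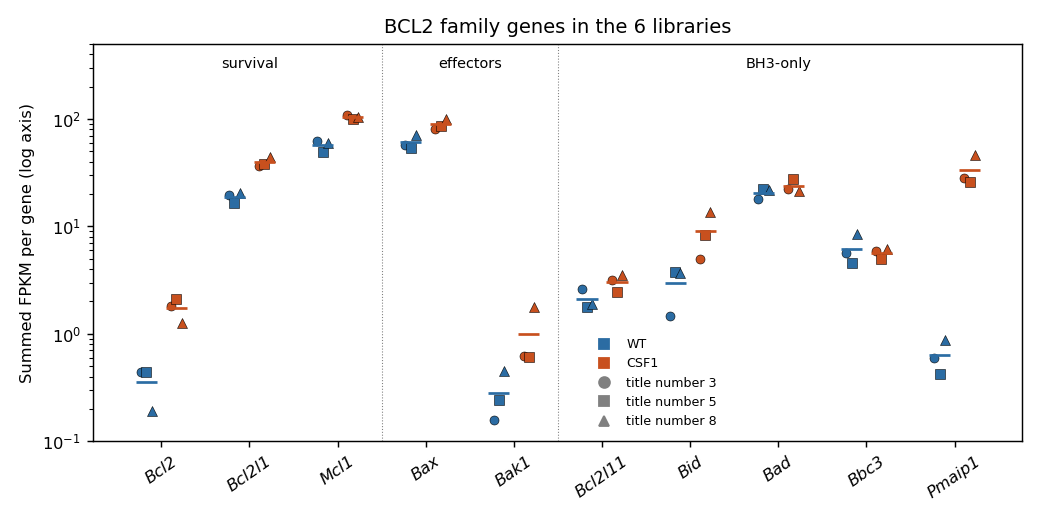
Summed FPKM of each of the 10 members in each library, on a log axis, with WT in blue, CSF1 in orange, a horizontal bar at each group mean and a symbol for the number in the title. Pmaip1 is the member with the widest gap, from under 1 FPKM in WT to between 25.9 and 46.6 in CSF1, and the groups overlap for Bcl2l11, Bad and Bbc3.

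Among the survival genes, Mcl1 was the most abundant. Mcl1 encodes a short-lived protein that sequesters BAK and BH3-only proteins (chromosome 3, 95658721 to 95663178, plus strand, mm10, 1 transcript). It was at 62.0, 49.8 and 59.5 FPKM across WT, against 109, 99.7 and 105 across CSF1. Every CSF1 library lay well above every WT library, and the CSF1 values were close together. The mean rose 1.83-fold, from 57.1 ± 6.45 to 104.5 ± 4.52 FPKM (SD, n = 3 each). On the log2(FPKM + 1) scale, used for all log2 changes here and given with the SE, it changed by 0.87 ± 0.13 (limma adjusted p = 0.00146).

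Bcl2l1, the gene of BCL-XL (chromosome 2, 152758732 to 152831728, minus strand), was at 19.4, 16.5 and 20.5 FPKM across WT, against 36.5, 37.9 and 44.4 across CSF1. The lowest CSF1 library was above the highest WT library. Its mean rose 2.11-fold, from 18.8 ± 2.06 to 39.6 ± 4.22 FPKM (change of 1.04 ± 0.15 in log2 with limma adjusted p = 0.0010). Of its 4 listed transcripts, 2 were at 0 in all 6 libraries, and the other 2 begin at different start sites about a kilobase apart. The transcript of 2421 bases, which starts at 152831728, was at 10.05, 12.3 and 14.5 FPKM across WT, against 22.1, 20.3 and 27.2 across CSF1. The transcript of 2627 bases, which starts at 152830717, was at 9.38, 4.18 and 6.02 FPKM across WT, against 14.5, 17.6 and 17.2 across CSF1. Both were higher in each CSF1 library than in any WT library, so the higher gene total was not carried by 1 start site alone. Cufflinks estimates such shares from overlapping transcripts, and the split is less certain than the sum.

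The promoter windows of these 2 start sites are printed because both transcripts were higher in CSF1. Each runs from 250 bases before the start to 50 after it, on the minus strand of GRCm38.p6 (RefSeq), at chr2:152831679-152831978 for the first and chr2:152830668-152830967 for the second. Both strands were searched for the STAT motif TTCNNNGAA, the AP-1 motif TGANTCA, an interferon response motif GAAANNGAA, the NF-kB consensus and the p53 half-site consensus, and matches are in capitals.
Bcl2l1, start at 152831728: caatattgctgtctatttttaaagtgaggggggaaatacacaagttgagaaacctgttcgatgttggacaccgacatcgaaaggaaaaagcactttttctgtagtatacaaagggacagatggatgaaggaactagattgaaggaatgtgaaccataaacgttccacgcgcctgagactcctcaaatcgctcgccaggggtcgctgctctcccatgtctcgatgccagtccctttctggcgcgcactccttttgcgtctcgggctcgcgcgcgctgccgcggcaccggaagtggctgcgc
Bcl2l1, start at 152830717: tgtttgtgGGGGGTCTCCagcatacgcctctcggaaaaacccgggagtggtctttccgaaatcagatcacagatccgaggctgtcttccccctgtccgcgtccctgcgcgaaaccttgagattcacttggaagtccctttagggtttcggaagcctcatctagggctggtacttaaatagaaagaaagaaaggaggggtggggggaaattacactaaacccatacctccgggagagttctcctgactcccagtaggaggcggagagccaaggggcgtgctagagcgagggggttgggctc
The first window had no match, and the second had 1 match to the NF-kB consensus, whose first base is at -242 from the start. Among all 32851 RefSeq windows of this length, 8.46% held an NF-kB match, 8.30% a STAT match, 7.81% an AP-1 match, 8.56% an interferon response match and 8.36% a p53 half-site match. A match here is a description of letters and not a bound site.

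Bcl2, the founding member of the family (chromosome 1, 106538178 to 106714290, minus strand), was barely present in WT, at 0.439, 0.441 and 0.189 FPKM, and stayed low in CSF1, at 1.81, 2.13 and 1.26 FPKM. The groups did not overlap, but all values were small beside those of Bcl2l1 and Mcl1. The mean rose 4.86-fold, from 0.357 ± 0.145 to 1.73 ± 0.438 FPKM (change of 1.004 ± 0.23 in log2 with limma adjusted p = 0.0103). With quantile normalization it no longer passed (log2 change 0.34 with limma adjusted p = 0.252), nor without both libraries numbered 3 (adjusted p = 0.0704). With the most abundant transcript per gene, or a filter of 5 FPKM, Bcl2 was too low to be tested. The same held without CSF1 replicate 3, CSF1 replicate 5 or both libraries numbered 5. Like Pmaip1, Bcl2 entered the test only through its CSF1 level. With no filter on low values it passed (limma adjusted p = 0.0115). Its short transcript of 2517 bases was listed at 0, 0.342 and 0 FPKM across WT, against 0.952, 0.966 and 0.905 across CSF1. The long transcript of 7207 bases was at 0.439, 0.0998 and 0.189 FPKM across WT, against 0.862, 1.16 and 0.356 across CSF1, where the groups overlapped. An antisense gene shares 6.09% of the exon bases of Bcl2.

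**Figure D2:**
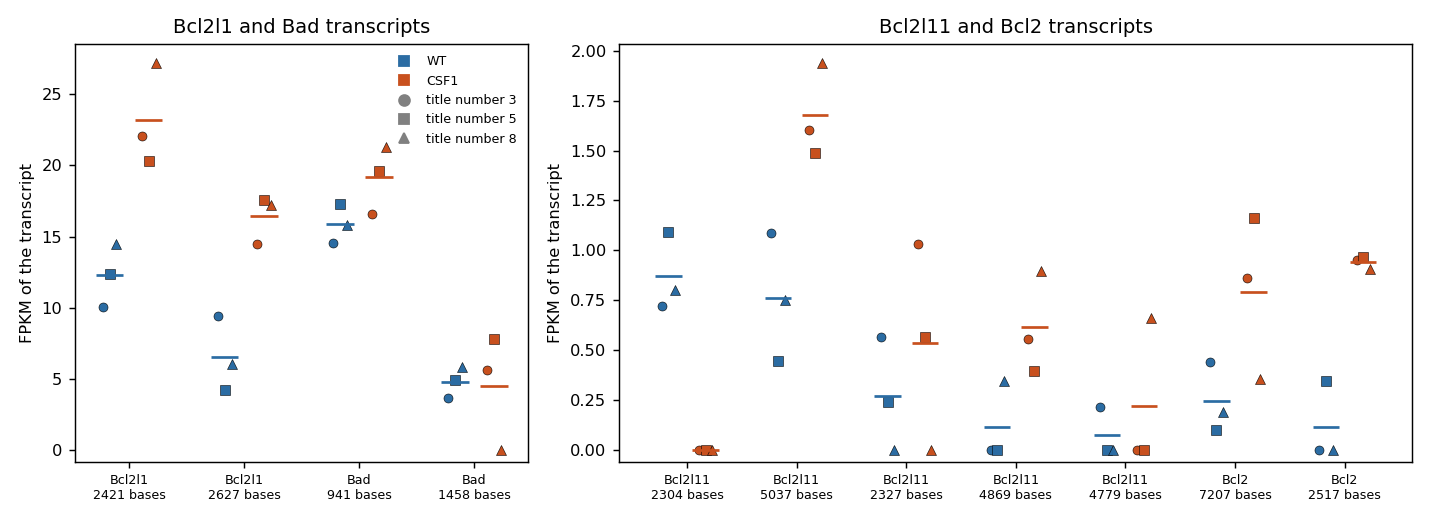
FPKM of each transcript above 0 in any library, named by gene and length, with Bcl2l1 and Bad on the left and Bcl2l11 and Bcl2 on the right, symbols as in the plot of member levels and a bar at each group mean. Both Bcl2l1 transcripts are higher in every CSF1 library, and the Bcl2l11 transcript of 2304 bases is listed at 0 in all 3 CSF1 libraries. The split between overlapping transcripts is less certain than the gene sum.

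Of the effectors, Bax was the abundant one. Bax encodes a cytosolic protein that moves to mitochondria and forms pores there (chromosome 7, 45461695 to 45466898, minus strand, 1 transcript). It was at 57.0, 53.4 and 71.3 FPKM across WT, against 81.0, 86.4 and 99.4 across CSF1. The groups did not overlap, though WT replicate 8, at 71.3 FPKM, came near the lowest CSF1 library, at 81.0. The mean rose 1.47-fold, from 60.6 ± 9.45 to 89.0 ± 9.46 FPKM (change of 0.55 ± 0.15 in log2 with limma adjusted p = 0.0237). This call was lost with median-ratio scaling (log2 change 0.35 with limma adjusted p = 0.0858) and with FPKM rescaled to genes outside the 5 most abundant (0.36, adjusted p = 0.0505), and over all alternatives the adjusted p ran from 0.0118 to 0.214. It was also lost without WT replicate 3 (limma adjusted p = 0.0606), WT replicate 5 (0.102), CSF1 replicate 5 (0.0592) or CSF1 replicate 8 (0.0644), and without both libraries numbered 3 (0.0798) or 5 (0.214). In GENCODE M21, 12.2% of its exon bases are shared with a second gene model on the same strand, Gm45808. Bax is a textbook target of p53, so its promoter window is shown, at chr7:45466849-45467148 on the minus strand of GRCm38.p6 (RefSeq), with the 1 match to the p53 half-site consensus, whose first base is at -201 from the start, in capitals.
Bax, start at 45466898: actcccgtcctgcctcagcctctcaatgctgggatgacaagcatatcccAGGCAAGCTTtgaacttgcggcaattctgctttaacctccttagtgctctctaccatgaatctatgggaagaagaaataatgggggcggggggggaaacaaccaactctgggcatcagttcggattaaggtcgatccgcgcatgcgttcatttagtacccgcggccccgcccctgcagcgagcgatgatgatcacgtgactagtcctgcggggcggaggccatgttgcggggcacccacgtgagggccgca
A p53 half-site match was found in 8.36% of all windows. Trp53, the gene of p53, was itself at 10.5, 9.72 and 10.7 FPKM across WT, against 20.9, 23.9 and 29.8 across CSF1 (log2 change 1.19 ± 0.16, limma adjusted p = 0.000858). Any link between Trp53 and the level of Bax was not tested.

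Bak1, the gene of the effector that sits constantly on the mitochondrial membrane (chromosome 17, 27019812 to 27028626, minus strand), was at 0.158, 0.240 and 0.452 FPKM across WT, against 0.617, 0.603 and 1.78 across CSF1. The CSF1 libraries were the higher ones, and CSF1 replicate 8 stood above the other two. With no filter on low values its log2 change was 0.60 ± 0.24 and did not pass (limma adjusted p = 0.145), and the exact two-sided permutation p was 0.1 (n = 3 per group), the smallest this design allows. In GENCODE M21, 25.5% of its exon bases are shared with exons of Ggnbp1 on the opposite strand, and neither library kit named in the labels marks strand. Ggnbp1 was at 4.71 to 6.50 FPKM in WT and at 1.81 to 1.83 FPKM in CSF1, lower where Bak1 was higher.

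Pmaip1 had the largest change of the 10. It encodes NOXA, a BH3-only protein that binds MCL-1 and promotes its breakdown (chromosome 18, 66458604 to 66465558, 1 transcript). It was at 0.590, 0.421 and 0.874 FPKM across WT, against 28.5, 25.9 and 46.6 across CSF1. The groups were far apart, and Cufflinks' own intervals ended at 1.11 FPKM in the highest WT library and began at 24.95 FPKM in the lowest CSF1 library. The mean rose 53.6-fold, from 0.629 ± 0.229 to 33.7 ± 11.3 FPKM, and its log2 change was 4.37 ± 0.24 (limma adjusted p = 9.47e-06). That change was the 58th largest rise among the 10951 tested genes. Pmaip1 entered that test only through its CSF1 level, so its p-value and rank there are descriptions. With no filter on low values it also passed (limma adjusted p = 0.000689). CSF1 replicate 8 was the highest for Pmaip1, as it was for every marker sum except that of stroma, and replicates 3 and 5 were also far above WT. The CSF1 order of Pmaip1, with replicate 5 lowest, was also that of the basal, lymphocyte and endothelial marker sums. The macrophage, luminal and neutrophil sums were lowest in replicate 3, and the stroma sum in replicate 8. An order of 3 libraries does not tell these apart, and no source was tested. Pmaip1 passed under all 20 alternatives, with log2 changes from 2.74 (pseudocount of 5) to 5.53 (pseudocount of 0.1).

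Bid encodes a BH3-only protein that caspase-8 cleaves into its active form (chromosome 6, 120893119 to 120916820, minus strand). It was at 1.48, 3.73 and 3.68 FPKM across WT, against 5.00, 8.38 and 13.7 across CSF1. Among the CSF1 libraries Bid was lowest in replicate 3 and highest in replicate 8, an order shared by the macrophage, luminal and neutrophil marker sums and by Csf1. The mean rose 3.05-fold, from 2.96 ± 1.29 to 9.04 ± 4.40 FPKM (change of 1.31 ± 0.37 in log2 with limma adjusted p = 0.0253). The call was lost with quantile normalization (limma adjusted p = 0.0828), with no filter on low values (0.0803) and without WT replicate 3, CSF1 replicate 5 or CSF1 replicate 8 (0.0765, 0.0602 and 0.0629), and without both libraries numbered 5 (0.0855) or 8 (0.0658). Exons of Bcl2l13 on the opposite strand share 17.7% of the exon bases of Bid, and Bcl2l13 was at 3.33 to 4.09 FPKM in WT and 2.91 to 4.44 FPKM in CSF1. Casp8, the gene of the enzyme that cleaves BID, rose from 8.97 ± 0.551 to 24.4 ± 2.81 FPKM (change of 1.34 ± 0.15 in log2 with limma adjusted p = 0.000258).

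Bcl2l11 encodes BIM, which binds all of the survival proteins (chromosome 2, 128126038 to 128162547, plus strand). It was at 2.59, 1.78 and 1.90 FPKM across WT, against 3.19, 2.45 and 3.50 across CSF1. The groups overlapped and the gene total did not pass (log2 change 0.39 ± 0.20, limma adjusted p = 0.178), and its change was -0.065 with quantile normalization. Its 5 transcripts differed in direction. The transcript of 5037 bases was at 1.09, 0.445 and 0.751 FPKM across WT, against 1.60, 1.49 and 1.94 across CSF1. The transcript of 2304 bases was at 0.722, 1.09 and 0.802 FPKM in WT and listed at 0 in every CSF1 library, with upper bounds of 0.0191 to 0.0229 FPKM. The transcripts of 5037 and 2304 bases begin at the same start site. Another transcript, of 2327 bases, ends where that of 2304 bases does. It was at 0.562, 0.240 and 0 FPKM across WT, against 1.03, 0.567 and 0 across CSF1. The split between overlapping transcripts is less certain than the sum, and the single transcripts were not tested.

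Bad, whose protein is held inactive by survival-factor phosphorylation (chromosome 19, 6941861 to 6951905, plus strand), was at 18.2, 22.2 and 21.6 FPKM across WT, against 22.2, 27.4 and 21.3 across CSF1. The groups overlapped (log2 change 0.18 ± 0.15, limma adjusted p = 0.409), and the change was below 0 under quantile normalization, median-ratio scaling and rescaling to genes outside the 5 most abundant. Its transcript of 1458 bases was at 3.66 to 5.79 FPKM across WT, against 5.60, 7.79 and 0 across CSF1. In Bad, 20.5% of exon bases are shared with exons of Gpr137 on the opposite strand.

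Bbc3 encodes PUMA, a BH3-only protein and a classical p53 target (chromosome 7, 16309583 to 16318334, plus strand). It was at 5.65, 4.59 and 8.43 FPKM across WT, against 5.85, 5.01 and 6.18 across CSF1. All 3 CSF1 values lay inside the WT range, and the difference did not pass (log2 change -0.08 ± 0.22, limma adjusted p = 0.811). Without WT replicate 8, the sign turned (log2 change 0.13 with limma adjusted p = 0.659), as it did without both libraries numbered 8 (0.07, adjusted p = 0.825). The window at its start, chr7:16309333-16309632 on the plus strand of GRCm38.p6 (RefSeq), is shown as that of a p53 target that did not pass. Its 2 overlapping NF-kB consensus matches begin at -137 and -136 from the start and are in capitals.
Bbc3, start at 16309583: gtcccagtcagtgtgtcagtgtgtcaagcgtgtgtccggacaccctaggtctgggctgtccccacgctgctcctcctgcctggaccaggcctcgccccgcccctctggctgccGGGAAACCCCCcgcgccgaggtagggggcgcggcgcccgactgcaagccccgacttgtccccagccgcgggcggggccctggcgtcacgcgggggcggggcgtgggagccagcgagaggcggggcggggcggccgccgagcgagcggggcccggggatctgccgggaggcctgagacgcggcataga
None of the 5 motifs matched in the windows of Bcl2, Bcl2l11, Mcl1, Bid, Bak1 or Bad. Of the members, 9 had windows in the table, 15 in all.

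Across all tested genes the log2 change had a median of 0.17. That median moved to -0.16 when quantiles were equalised, to -0.01 under median-ratio scaling and to 0.01 when FPKM was rescaled to genes outside the 5 most abundant. The share of called genes that were higher moved with it, from 77.0% to 41.8%, 56.0% and 60.2%. Relative to that median, the log2 changes were 4.20 for Pmaip1, 1.13 for Bid, 0.86 for Bcl2l1, 0.83 for Bcl2, 0.69 for Mcl1 and 0.38 for Bax. Relative to it, Bcl2l11 was at 0.22, Bad at 0.01 and Bbc3 at -0.25. Bcl2l1, Mcl1 and Pmaip1 were called under all 3 other scalings.

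**Figure D3:**
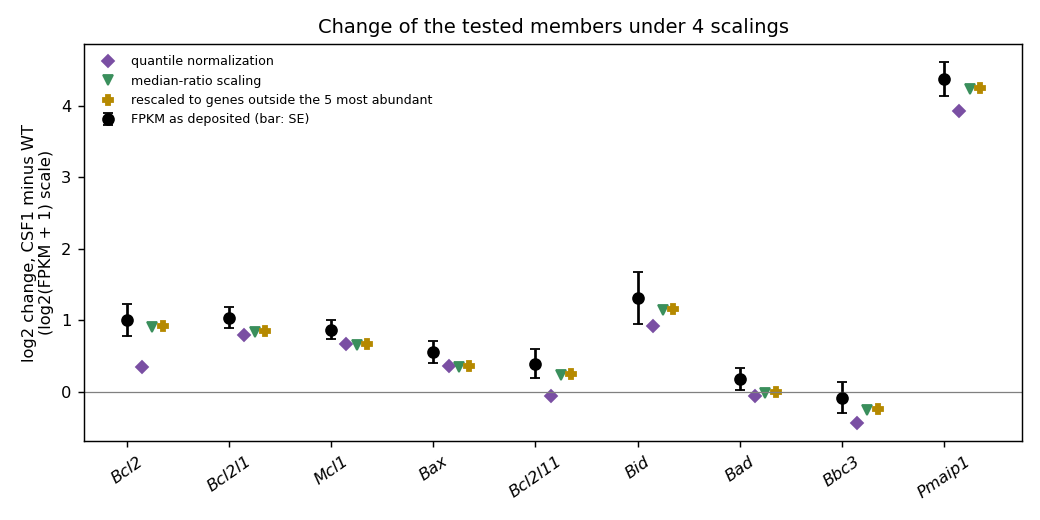
Log2 change of CSF1 minus WT for the 9 tested members on the log2(FPKM + 1) scale, as deposited (black, bars are SE) and under 3 other scalings (colours). Pmaip1 is above 3.9 in each, Bcl2l1 and Mcl1 stay above 0, and Bcl2l11 and Bad cross 0.

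The order of levels changed between the groups. In WT it ran, by mean FPKM, Bax, Mcl1, Bad, Bcl2l1, Bbc3, Bid, Bcl2l11, Pmaip1, Bcl2 and Bak1. The ranges of Bax and Mcl1 overlapped there, as did those of Bad and Bcl2l1, of Bid and Bcl2l11, of Pmaip1 and Bcl2, and of Bcl2 and Bak1. In CSF1 it ran Mcl1, Bax, Bcl2l1, Pmaip1, Bad, Bid, Bbc3, Bcl2l11, Bcl2 and Bak1. Mcl1 and Bax no longer overlapped there, since the lowest Mcl1 value was 99.7 and the highest Bax value 99.4 FPKM, a narrow gap. Pmaip1 overlapped both Bcl2l1 and Bad in CSF1, Bid overlapped Bbc3 and Bcl2 overlapped Bak1. FPKM is scaled to length, so these levels are set side by side per length.

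Summed by role, the 3 survival genes were at 81.9, 66.8 and 80.2 FPKM across WT, against 147, 140 and 151 across CSF1, a mean of 76.3 ± 8.28 against 146 ± 5.60. The 2 effector genes summed to 57.1, 53.7 and 71.7 FPKM in WT and to 81.7, 87.0 and 101 FPKM in CSF1. The 5 BH3-only genes summed to 28.5, 32.7 and 36.5 FPKM in WT and to 64.7, 69.1 and 91.3 FPKM in CSF1. Every role was higher in all CSF1 libraries, by 1.91-fold, 1.48-fold and 2.30-fold in the mean. The make-up of the BH3-only sum differed as well. Pmaip1 was 1.92 ± 0.568% of it in WT and 44.2 ± 6.79% in CSF1, while Bad went from 63.6 ± 4.31% to 32.4 ± 8.30% and Bbc3 from 19.0 ± 4.59% to 7.69 ± 1.20%.

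Ratios of FPKM within a library do not change when the whole library is multiplied by 1 factor, though quantile normalization would change them. The survival sum over the effector sum was 1.43, 1.24 and 1.12 across WT, against 1.801, 1.61 and 1.49 across CSF1. The CSF1 ratios lay above the WT ratios, with a small gap. These sums hold only the members studied here. The effector gene Bok, left out, was at 2.78, 2.74 and 3.08 FPKM across WT, against 29.8, 22.7 and 46.6 across CSF1. The Bcl2a1 survival genes, also left out, summed to 3.31, 6.97 and 11.8 FPKM across WT, against 99.5, 149 and 414 across CSF1. The survival gene Bcl2l2, left out as well, was lower in CSF1. The gap depends on which genes are summed. With Bok added to the effectors alone, the ratios of the groups would overlap. With the Bcl2a1 genes also added to the survival sum, the CSF1 ratios would again lie above those of WT. The ratio of Bcl2l1 to Bax was 0.341, 0.309 and 0.287 in WT and 0.451, 0.438 and 0.447 in CSF1, so these 2 genes did not change in proportion. The ratio of Mcl1 to Bax overlapped between the groups, at 1.09, 0.932 and 0.835 in WT and 1.34, 1.15 and 1.06 in CSF1, but was higher in CSF1 within all 3 same-numbered pairs. The BH3-only sum over the survival sum also overlapped, at 0.348, 0.490 and 0.455 against 0.440, 0.494 and 0.606, and was likewise the higher one in CSF1 within all 3 pairs, by a small margin for number 5. The ratio of Pmaip1 to Mcl1, whose proteins bind each other, was 0.00952, 0.00846 and 0.0147 in WT and 0.262, 0.259 and 0.444 in CSF1. These sums and ratios are descriptions and were given no test.

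**Figure D4:**
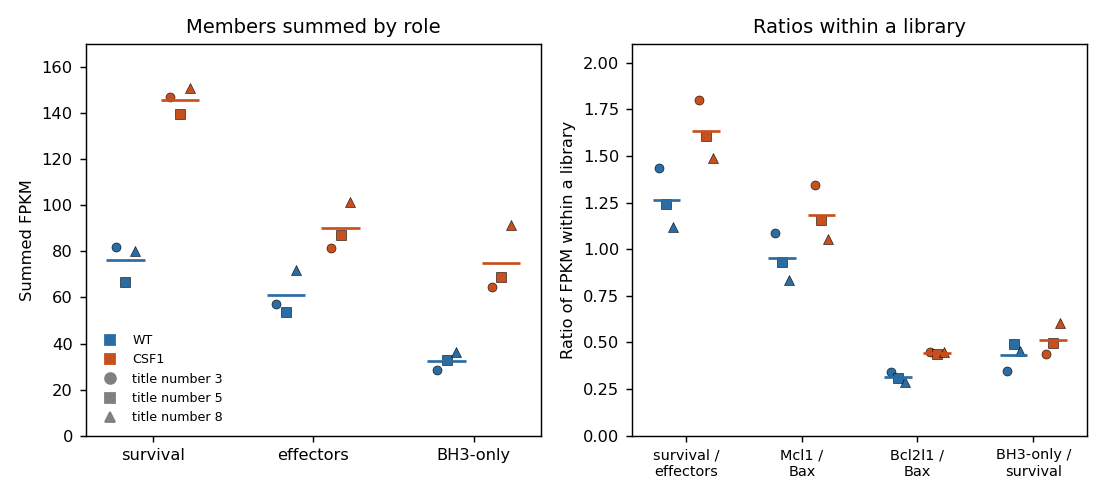
Left, FPKM summed over the survival, effector and BH3-only members in each library; right, ratios of FPKM within a library, symbols as in the plot of member levels with a bar at each group mean. All 3 sums are higher in CSF1, and the ratio of Bcl2l1 to Bax separates the groups while that of the BH3-only to the survival sum overlaps between them.

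Further family genes were taken from lists of the pathway, whose median log2 changes stand beside the 0.17 of all tested genes. The counts called in each list stand beside the 24.9% of all tested genes called higher and the 7.47% called lower. Of 6 other survival genes, 4 were tested (median 4.22): 3 rose, 0 fell and the remaining 1 missed the threshold, which at an unadjusted p under 0.05 was lower. The 3 that rose were Bcl2a1a, Bcl2a1b and Bcl2a1d, genes of the A1 survival protein that is prominent in myeloid cells. Their sequences are closely alike and the authors' counting could split reads between them, so they are best read as a sum. The sum of 4 Bcl2a1 genes was 3.31, 6.97 and 11.8 FPKM in WT and 99.5, 149 and 414 FPKM in CSF1. In both groups replicate 3 was lowest and replicate 8 highest, an order shared by the macrophage marker sum, the luminal marker sum and Csf1 itself. Singly, the log2 changes were 4.31 ± 0.43 for Bcl2a1a, 4.34 ± 0.55 for Bcl2a1b and 4.14 ± 0.49 for Bcl2a1d (limma adjusted p from 0.000177 to 0.000620). Bcl2l2, the gene of the survival protein BCL-W, was at 4.35, 6.33 and 3.27 FPKM across WT, against 2.72, 2.67 and 1.86 across CSF1. Every CSF1 value of Bcl2l2 was below every WT value, and the change just missed the threshold (log2 change -0.70 ± 0.24, limma adjusted p = 0.0537). Bcl2l2 passed under all 3 other scalings (limma adjusted p from 0.00815 to 0.0399) and with the replicate block (0.0303). It missed the threshold with no filter on low values (0.115) and in every fit that left out libraries (0.0524 to 0.255) except the one without WT replicate 8 (0.0341).

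Of 10 other effector or BH3-containing genes, 9 were tested (median 0.03): 1 rose, 1 fell and the remaining 7 missed the threshold. Bok, an effector related to Bax and Bak1, was at 2.78, 2.74 and 3.08 FPKM across WT, against 29.8, 22.7 and 46.6 across CSF1. The mean level of Bok in CSF1 was thus near that of Pmaip1, and its log2 change was 3.08 ± 0.24 (limma adjusted p = 5.81e-05). Bnip3, a hypoxia-responsive mitochondrial gene also known for mitophagy, fell from 63.0 ± 9.07 to 36.4 ± 4.31 FPKM (change of -0.77 ± 0.16 in log2 with limma adjusted p = 0.00587), a call lost without both libraries numbered 5 (0.0806), and 22.3% of its exon bases are shared with an antisense gene. Bik, a BH3-only gene, was at 31.6, 24.2 and 29.1 FPKM across WT, against 35.5, 34.2 and 34.4 across CSF1 and did not pass (limma adjusted p = 0.149). Bcl2l14 was at 25.2, 31.4 and 47.5 FPKM across WT, against 31.5, 33.3 and 32.3 across CSF1 (limma adjusted p = 0.889). The others that did not pass, Bmf, Bnip3l, Bcl2l12, Bcl2l13 and Bcl2l15, had log2 changes of -0.17, 0.07, 0.34, 0.03 and -0.77. Bcl2l15 was called lower under all 3 other scalings (limma adjusted p from 0.0144 to 0.0351), with the replicate block (0.0446), and without CSF1 replicate 8 (0.0139) or both libraries numbered 8 (0.0395). Bmf was called lower with quantile normalization (log2 change -0.74, limma adjusted p = 0.0340). Hrk was listed at 0 in all 6 libraries.

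**Figure D5:**
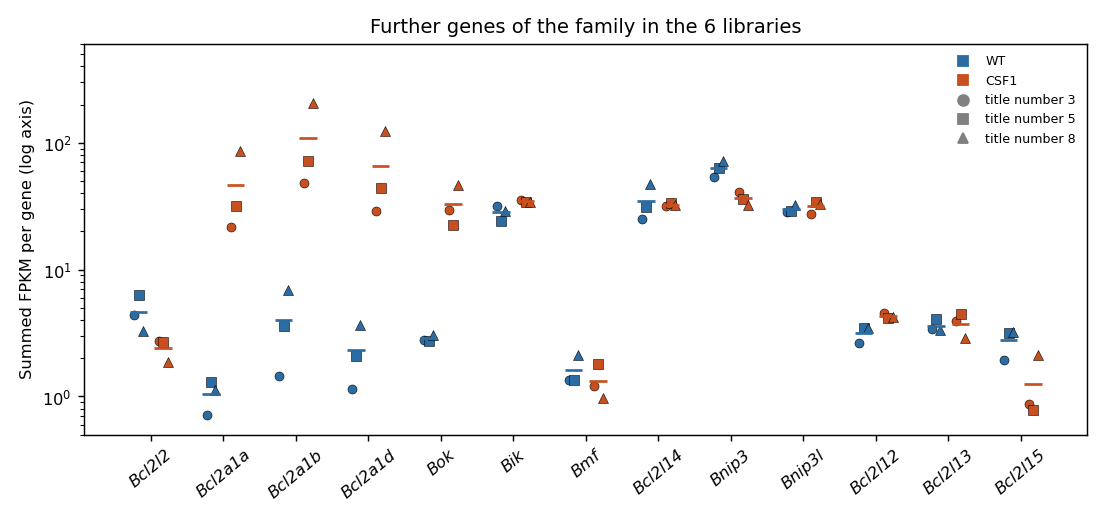
Summed FPKM per library of the 13 further family genes that averaged 1 FPKM or more, on a log axis, symbols as in the plot of member levels and a bar at each group mean. The 3 Bcl2a1 genes and Bok stand apart between the groups, Bnip3 and Bcl2l2 are lower in every CSF1 library, and Bcl2l14 and Bnip3l overlap.

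Downstream of the mitochondria, 15 of 16 apoptosome and caspase genes were tested (median 0.35): 4 rose, 0 fell and the remaining 11 missed the threshold, and 4 were higher and 1 lower at an unadjusted p under 0.05. A count of 4 in 15 is close to the 24.9% of all tested genes called higher. Besides Casp8, Casp6 rose from 23.0 ± 2.45 to 48.9 ± 1.11 FPKM (change of 1.06 in log2 with limma adjusted p = 0.000522). Cflar, the gene of the caspase-8 inhibitor c-FLIP, also rose (limma adjusted p = 0.0155), at 6.96, 9.12 and 7.97 FPKM across WT, against 11.9, 13.4 and 12.9 across CSF1. Cycs, the gene of cytochrome c, did not pass (63.2 ± 8.00 against 67.1 ± 7.44 FPKM), and Casp9 overlapped between the groups, at 2.63 to 4.22 FPKM in WT and 2.27 to 5.26 in CSF1.

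Of 7 tested inhibitors of apoptosis (median 0.46), 3 rose and 1 fell, leaving 3 that missed the threshold. Of all tested genes, 24.9% were called higher and 7.47% lower. Birc3, which encodes cIAP2, rose from 22.2 ± 1.79 to 52.6 ± 10.01 FPKM (change of 1.19 in log2 with limma adjusted p = 0.000832). Birc5, which encodes survivin and is expressed in dividing cells, rose from 1.08 ± 0.721 to 5.48 ± 1.25 FPKM (change of 1.69 in log2 with limma adjusted p = 0.00356). Naip6 fell from 9.22 ± 3.35 to 4.53 ± 1.24 FPKM (limma adjusted p = 0.0399), a call lost without WT replicate 5 (0.138), WT replicate 8 (0.0886), CSF1 replicate 3 (0.0735) or CSF1 replicate 8 (0.105), and without both libraries numbered 5 (0.119) or 8 (0.157), and its Naip relatives are similar enough that reads may be shared. Of 8 tested outer membrane partners (median 0.18), 1 rose and 0 fell, leaving 7 that missed the threshold. At an unadjusted p under 0.05, 3 of these partners were higher and 0 lower (31.4% and 11.2% of all tested genes). The one that rose was Bag3, a co-chaperone gene, from 22.5 ± 4.99 to 70.7 ± 23.0 FPKM (change of 1.58 in log2 with limma adjusted p = 0.00193).

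Of 8 tested transcription factors known to act on BH3-only genes or Bax (median -0.19), 1 rose and 2 fell, leaving 5 that missed the threshold. Trp53 rose, as given beside Bax. Ddit3, the gene of the stress factor CHOP, fell from 236 ± 45.5 to 85.7 ± 34.0 FPKM (change of -1.53 in log2 with limma adjusted p = 0.00576), and E2f1 fell from 2.11 ± 0.126 to 0.804 ± 0.216 FPKM (change of -0.79 in log2 with limma adjusted p = 0.0169). In CSF1, E2f1 lay under 1 FPKM and it entered the test only through its WT level, so its p-value is a description. With no filter on low values it also passed (limma adjusted p = 0.0184). E2f1 was no longer called without WT replicate 3, 5 or 8 (limma adjusted p = 0.0510, 0.0522 and 0.0537), nor without both libraries numbered 3, 5 or 8 (0.0943, 0.0864 and 0.0697). None of 6 genes (median 0.05) acting on the stability of MCL-1 protein, such as the ligase genes Huwe1 and Fbxw7 and the deubiquitinase gene Usp9x, was called by limma, and at an unadjusted p under 0.05 the count was also 0.

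Over the 6 libraries, the genes whose log2(FPKM + 1) was most like that of Bcl2l1 were Prkar1a, Tec and Msn (Pearson r of 0.9995, 0.9989 and 0.9988), and for Bcl2l11 they were Tnip2, Med23 and Cdkn1a (0.989, 0.987 and 0.985). These correlations are over 6 points in 2 groups that differ in genotype, depth and cell markers, searched over 10950 genes, and are a description only.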

How the data were processed

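Per the labels' protocols, luminal cells were sorted from mice of both genotypes and cDNA was made with SMART-Seq v4 from random and oligo-dT primers; Nextera XT and TruSeq DNA kits are both named. Per the submitters' processing notes, bcl2fastq 1.8.3, TopHat and Cufflinks (versions not stated) were used with mm10. For each library the authors deposited Cufflinks isoform estimates in FPKM with interval bounds, and a coverage signal, which was proportional to FPKM in every library. Fragment totals are not given in these tables, so the depth behind a value is known only relatively.

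FPKM was summed over the 34535 transcripts by gene symbol. Genes whose Cufflinks status was HIDATA or FAIL (9 in all, 0 of them members) were left out. Genes averaging 1 FPKM or more (10951) were tested together as log2(FPKM + 1) with limma 3.58.1 in R 4.3.3 (moderated statistic, intensity trend, two-sided, Benjamini-Hochberg over all genes, threshold 0.05). Fold changes on this scale understate those of low genes. The code recovered known answers on simulated data, where planted changes were larger than those of all called members but Pmaip1. They were planted only in genes above the mean WT levels of Bcl2, Pmaip1, Bid and Bcl2l11, so smaller changes and lower genes were not tried. Python 3.11.15, pandas 2.3.3 and matplotlib 3.10.9 did the rest.

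Libraries with the same title number deviated together from their group means (r = 0.257, 0.111 and 0.182 for numbers 3, 5 and 8), so the numbers were taken as pairs and a replicate block was fitted as an alternative. The other alternatives were 3 scalings, 2 pseudocounts, 2 filters, a fit with no trend, a robust fit, the most abundant transcript per gene, and leaving out each library or each number. The members and lists were chosen with earlier results of these data known. Named were all 10 members, all tested genes of the further family lists, up to 3 called genes of each other list by size of change (1 is not reported here), the 3 genes most like Bcl2l1 and Bcl2l11, and Csf1. Cflar, Cycs, Casp9, Diablo, Htra2, Apaf1, Huwe1, Fbxw7, Usp9x and the genes overlapping members were added after their values were seen. Promoter windows are from RefSeq (GRCm38.p6), and exon overlaps from GENCODE M21.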

Additional observations from a re-analysis of the deposited data

How the results depend on the processing

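Over 20 alternatives, the 9 tested members gave 174 values, of which 151 kept their direction and their side of the threshold, 17 kept the direction but no longer passed and 6 turned in sign. Fits in which a member was under the filter gave no value and are not counted. This was so for Bcl2 in the fits named beside it, where its call was lost, and for Bcl2l11 at a filter of 5 FPKM. Bcl2l1, Mcl1 and Pmaip1 passed in all 20. With the replicate block, 6 members were higher, the same count, and no member's call changed, while Bcl2l2 and Bcl2l15 passed (adjusted p = 0.0303 and 0.0446). Leaving out libraries gave 3 to 6 members higher and 1860 to 3156 genes called, with the lowest counts without both libraries numbered 5. Signs turned only for genes that did not pass as deposited. With quantile normalization these were Bcl2l11 (-0.065), Bad (-0.066), Bnip3l (-0.16), Bcl2l12 (-0.053) and Bcl2l13 (-0.38). With median-ratio scaling they were Bad (-0.018), Bnip3l (-0.13) and Bcl2l13 (-0.13), and with rescaling outside the 5 most abundant genes Bad (-0.0058), Bnip3l (-0.12) and Bcl2l13 (-0.12). Over the left-out libraries, log2 changes ran from -0.25 to 0.13 for Bbc3, -0.25 to 0.20 for Bcl2l14, -0.073 to 0.17 for Bcl2l13, -0.38 to 0.083 for Bmf and -0.0013 to 0.16 for Bnip3l. The cause was not tested. Other named genes kept direction and side in 406 of 453 values. Depth, known only relatively, was lower in WT and limits the low values of Bcl2, Bak1 and Pmaip1 there.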

Other observations

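Htra2, which encodes a mitochondrial protease released with cytochrome c, was listed at 13.2, 0 and 0 FPKM across WT, against 0, 0 and 13.5 across CSF1, so WT replicate 3 and CSF1 replicate 8 alone had a value. Diablo, the gene of another protein released from mitochondria, was at 30.2 to 33.7 FPKM across WT, against 32.9 to 34.4 across CSF1. Apaf1, the gene of the apoptosome scaffold, was under the filter, at 0.215, 0.757 and 0.211 FPKM across WT, against 1.93, 0.887 and 1.65 across CSF1, with every CSF1 value above every WT value.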
